A study of Zea mays with 9 samples.

Results

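Transcripts of 3 enzymes of the C4 carbon cycle were followed across maize leaves infiltrated with a hormone, a signalling peptide or a control solution. They are pyruvate, phosphate dikinase (PPDK, gene Zm00001eb287770), phosphoenolpyruvate carboxylase (PEPC, Zm00001eb383680) and the NADP-dependent malic enzyme (NADP-ME, Zm00001eb121470), taken by gene identifier as 3 of the 39755 genes in the count table. All 3 were among the 23077 genes that passed the filter on low counts and were tested. The leaves came from the cultivar Golden Bantam and were grown for 8 days, after which leaf 2 was cut and infiltrated under a vacuum of 60 mbar. The mock group received water with 0.1% of the solvent DMSO, the SA group 2 mM salicylic acid, a hormone of the response to pathogens, and the Zip1 group 5 µM of Zip1, a maize signalling peptide. Whether the SA and Zip1 solutions held DMSO is not stated. RNA was taken 6 h after infiltration from 3 libraries per group, 9 in all, with 28840453 to 38794412 counts each. Nothing in the labels says whether libraries of a group came from separate plants, so p-values measure the spread between these samples, which may be technical.

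In a maize leaf, carbon is first fixed in mesophyll cells and then released again, concentrated, next to Rubisco in the bundle sheath cells around the veins. PPDK regenerates phosphoenolpyruvate in mesophyll chloroplasts, PEPC in the mesophyll cytosol uses it to fix bicarbonate into oxaloacetate, and NADP-ME in bundle sheath chloroplasts splits malate to release the carbon dioxide. Each enzyme belongs to a family that also has members outside the C4 cycle. The maize C4 PPDK gene is also known to give a shorter transcript for a cytosolic form from an additional internal promoter, and a single count per gene cannot separate the forms.

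The PPDK gene lies on chromosome 6 from 157076338 to 157087055 on the plus strand, with a summed length of 4406 bases in the count table. The PEPC gene lies on chromosome 9 from 70927063 to 70932470 on the minus strand, with 3489 bases, and the NADP-ME gene on chromosome 3 from 7184482 to 7190135 on the plus strand, with 2640 bases. Coordinates are those of the deposited table, whose genome build is not given in the sources used here. The table pairs each gene with a protein entry of maize itself, the chloroplastic PPDK 1, PEPC 1 and the chloroplastic NADP-dependent malic enzyme. None of the 3 overlaps another gene in the table.

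The 3 genes together took between 5.45% and 6.85% of the counts of a library. PPDK had the most counts of any gene in all 9 libraries, at 2.93% to 4.0% of the total, and PEPC was next in all 9, at 1.81% to 2.74%. NADP-ME took 0.554% to 0.773%. Levels are given as CPM, the counts of a gene scaled to a common library size after TMM normalisation. Different genes were compared only in CPM per kilobase, because a longer transcript yields more reads. On that scale the mock leaves held 8671 ± 631 CPM per kilobase of PPDK, 6427 ± 561 of PEPC and 2565 ± 561 of NADP-ME (SD, n = 3). In the mock mean PPDK ranked 4 among all genes, behind a photosystem I subunit (psaK), a chlorophyll a-b binding protein and a Rubisco small subunit. PEPC ranked 7 and NADP-ME 36, and the ranks were 4, 7 and 28 with SA and 4, 5 and 26 with Zip1.

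PPDK was lower in all 3 Zip1 libraries than in all 3 mock libraries, but the difference did not pass the test. It stood at 41347, 36070 and 37202 normalised CPM in the mock libraries, replicates 1 to 3. With SA it stood at 37219, 31598 and 30756, and with Zip1 at 33284, 28238 and 27750. The SA libraries lay partly within the mock range, the highest SA library above the lowest mock library, while the highest Zip1 library was below the lowest mock library. The means were 38206 ± 2779, 33191 ± 3514 and 29757 ± 3064 normalised CPM in the mock, SA and Zip1 groups (SD, n = 3). The fitted log2 fold change of Zip1 against mock was -0.36 (SE 0.209, 95% interval -0.82 to 0.10), a fold of 0.779 with an interval of 0.566 to 1.07, and the adjusted p of edgeR's quasi-likelihood test was 0.581. Libraries that did not overlap in the lower direction were found for 7.35% of all tested genes in this comparison. For SA against mock the log2 fold change was -0.20 (SE 0.209, 95% interval -0.66 to 0.26, adjusted p 0.678).

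Libraries with the same replicate number deviated together across genes in the 2 comparisons with mock, and PPDK was lower in the treated library of each number. The log2 difference between the same-numbered Zip1 and mock libraries was -0.31, -0.35 and -0.42 for numbers 1 to 3. Between the same-numbered SA and mock libraries it was -0.15, -0.19 and -0.27. With these numbers as a block in the edgeR fit, the adjusted p stayed above 0.05, at 0.477 for Zip1 and 0.626 for SA. The SE of PPDK was 0.209 in both comparisons with the block, as it was without. The same-numbered differences were not tested on their own spread. The SA and Zip1 differences share the mock libraries and are therefore not independent of each other. In leaf RNA of mixed cells, fewer cells of a type and less RNA per cell cannot be told apart.

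**Figure D1:**
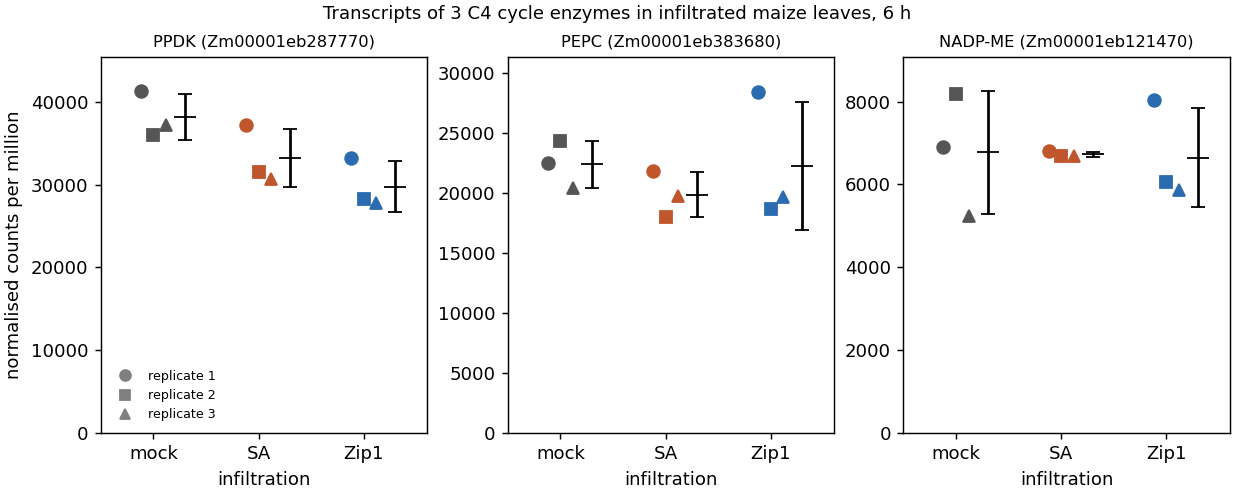
Normalised CPM (vertical axis, from 0) of PPDK, PEPC and NADP-ME in each library by infiltration, with symbols for replicate numbers and bars for the group mean ± SD (n = 3). The mean of PPDK is 38206 in mock and 29757 with Zip1, a difference that did not pass the test, and the 3 SA points of NADP-ME lie between 6688 and 6803.

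Differences in PEPC between the groups stayed within its spread. Its levels were 22550, 24313 and 20405 normalised CPM in mock, 21851, 18041 and 19741 with SA, and 28456, 18705 and 19650 with Zip1. Zip1 replicate 1 was the highest of the 9 libraries, and the other 2 Zip1 libraries were below every mock library, so the Zip1 group spread widest, with a coefficient of variation of 24.1% against 8.73% in mock and 9.60% with SA. The log2 fold change was -0.17 for SA against mock (SE 0.231, 95% interval -0.68 to 0.33, adjusted p 0.761 in the edgeR test). For Zip1 against mock it was -0.01 (SE 0.231, 95% interval -0.52 to 0.50, adjusted p 0.992). This last value was -0.23 without Zip1 replicate 1 and 0.065 with libraries scaled by total counts alone.

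NADP-ME had nearly the same mean in all 3 groups and differed in how far its libraries spread. Its levels were 6893, 8189 and 5233 normalised CPM in mock, 6803, 6688 and 6689 with SA, and 8031, 6065 and 5853 with Zip1. The SA libraries lay between 6688 and 6803, inside the range of both other groups, with a coefficient of variation of 0.983% against 21.9% in mock and 18.1% with Zip1; the difference in spread was not tested. The log2 fold change was -0.01 for SA against mock (SE 0.226, 95% interval -0.51 to 0.49, adjusted p 0.990) and -0.03 for Zip1 against mock (SE 0.226, 95% interval -0.52 to 0.47, adjusted p 0.980), both in the edgeR test. Both values turned positive, to 0.020 and 0.061, when libraries were scaled by total counts alone.

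The high and low libraries of NADP-ME in mock and Zip1 were also high and low in sums of other leaf genes, though not in PPDK in mock. These sums were of bundle sheath genes, mesophyll genes without PPDK and PEPC, and genes of the light-harvesting complexes. The 11 other genes of the bundle sheath list, which are 2 Rubisco small subunit genes, 3 Rubisco activase genes and 6 genes for PEP carboxykinase, summed to 15128, 21120 and 9878 CPM per kilobase in mock replicates 1 to 3. They summed to 11296, 13167 and 11932 with SA and to 16997, 11841 and 11101 with Zip1. In the mock mean the 2 Rubisco small subunit genes stood at 9649 and 4076 CPM per kilobase, so the sum mainly follows these 2 genes. Between 0 and 3 of the 12 genes, NADP-ME included, had no count in a library. Mock replicate 2 and Zip1 replicate 1 were the highest and mock replicate 3 the lowest, as for NADP-ME. The 4 mesophyll genes other than PPDK and PEPC, for NADP malate dehydrogenase and carbonic anhydrase, all had counts in every library and summed to 2178, 3011 and 2045 in mock, 2481, 2459 and 3491 with SA and 3049, 2295 and 2221 with Zip1. The 32 chlorophyll a-b binding genes summed to 52766, 75003 and 34478 in mock, 37466, 50481 and 38017 with SA and 55198, 44792 and 27532 with Zip1, with 5 to 7 of them at 0 in a library. In all 3 sums the highest mock library was replicate 2, the lowest mock library replicate 3 and the highest Zip1 library replicate 1. PEPC had the same order in these respects, but PPDK was lowest in replicate 2 among the mock libraries, at 36070 normalised CPM. With PPDK and PEPC included, the mesophyll sum was 18026, 18166 and 16337 CPM per kilobase in mock replicates 1 to 3. The share of each cell type in the leaf pieces was not measured, and its part in these levels was not tested.

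Set directly against SA, Zip1 also left the 3 enzymes uncalled. The log2 fold change of Zip1 against SA was -0.16 for PPDK (95% interval -0.62 to 0.30, adjusted p 0.778), 0.16 for PEPC (95% interval -0.34 to 0.67, adjusted p 0.793) and -0.02 for NADP-ME (95% interval -0.51 to 0.48, adjusted p 0.981), in the same edgeR fit. Between same-numbered Zip1 and SA libraries the log2 difference of PPDK was -0.16, -0.16 and -0.15. The blocked edgeR fit gave an adjusted p of 0.732. The numbers were taken to pair libraries only in the comparisons with mock. None of the 3 enzymes was called in any of the 3 comparisons, where 6.22% of tested genes were called for SA against mock, 0.884% for Zip1 against mock and 4.11% for Zip1 against SA. Those shares stand for 1436, 204 and 949 genes, and the 2 counts against mock became 2220 and 574 in the blocked fit. Without mock replicate 1, edgeR called 0 genes for Zip1 against mock, with 2184 at an unadjusted p under 0.05. The 95% intervals of the 9 log2 fold changes together reached from -0.82 to 0.67, so that a log2 change of 1 in either direction lay outside each. The lowest adjusted p of any enzyme over the alternatives tried was 0.183, for PPDK with Zip1 in DESeq2's Wald test.

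Ratios between the enzymes within a library do not depend on how libraries are scaled. In CPM per kilobase, the PPDK to PEPC ratio was 1.45, 1.17 and 1.44 in the mock libraries, 1.35, 1.39 and 1.23 with SA, and 0.926, 1.20 and 1.12 with Zip1. PEPC exceeded PPDK per length in Zip1 replicate 1 alone. On the log2 scale the ratio was 0.43 ± 0.17 in mock, 0.40 ± 0.09 with SA and 0.10 ± 0.19 with Zip1 (SD, n = 3). All 3 Zip1 libraries lay below all 3 SA libraries, a difference of -0.30 with a two-sided exact permutation p of 0.1, the smallest that 3 libraries against 3 allow, and an adjusted p of 0.45 over the 9 ratio comparisons. Zip1 and mock overlapped and differed by -0.33 (exact permutation p 0.2, adjusted p 0.45).

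The ratio of the bundle sheath enzyme to the mesophyll enzymes varied most among the mock libraries. NADP-ME was 0.278, 0.379 and 0.235 times PPDK in mock, 0.305, 0.353 and 0.363 times with SA, and 0.403, 0.358 and 0.352 times with Zip1. On the log2 scale the NADP-ME to PPDK ratio was -1.78 ± 0.35, -1.56 ± 0.13 and -1.43 ± 0.11 in the 3 groups (SD, n = 3). Zip1 was higher than mock by 0.35 (two-sided exact permutation p 0.3, adjusted p 0.54) and SA by 0.22 (exact permutation p 0.4, adjusted p 0.60), with overlapping libraries both times. The NADP-ME to PEPC ratio was -1.35 ± 0.20, -1.16 ± 0.13 and -1.33 ± 0.10, with no adjusted p under 0.45 in the exact test.

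**Figure D2:**
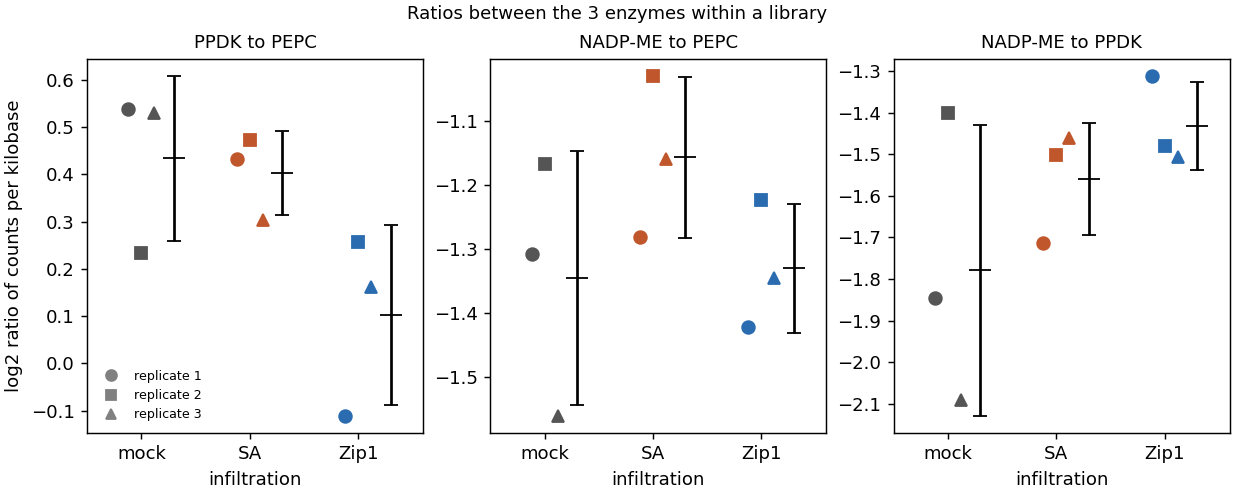
Log2 ratio of CPM per kilobase (vertical axis) between each pair of enzymes in each library by infiltration, with symbols for replicate numbers and bars for the group mean ± SD (n = 3). The Zip1 libraries of the PPDK to PEPC ratio average 0.10 against 0.43 in mock, and the mock libraries of the NADP-ME to PPDK ratio spread from -2.09 to -1.40.

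Over the 9 libraries, the levels of PEPC and NADP-ME varied together more closely than either did with PPDK, although PEPC and PPDK are the pair expressed in the same cell type. Pearson's r of log2 CPM was 0.71 for PEPC and NADP-ME, 0.46 for PPDK and PEPC, and 0.25 for PPDK and NADP-ME. Spearman's rho was 0.75, 0.62 and 0.43 in the same order. These values describe 9 libraries that share treatments, replicate numbers and scaling, and the differences between the pairs were not tested. Among 15974 genes with a mean of at least 100 normalised counts, the 3 whose pattern over the 9 libraries was most like PPDK were Zm00001eb286480, with a pentatricopeptide repeat protein entry (r = 0.93), Zm00001eb382180, with a phospholipid-transporting ATPase entry (r = 0.92), and Zm00001eb081810, with a ferric reduction oxidase entry (r = 0.92). For PEPC they were Zm00001eb329780, with an entry for a sugar phosphate phosphatase (r = 0.96), Zm00001eb184160, with an entry of the autophagy protein family (r = 0.96), and Zm00001eb303850, with an entry for a THO complex subunit (r = 0.91). For NADP-ME they were Zm00001eb081060 (r = 0.97), whose entry is a protein named SPA, and Zm00001eb030960 and Zm00001eb353590 (r = 0.97 and 0.96), which have no entry. None of these 9 was on the list of C4 pathway genes. Their r are the highest of a search over 15974 genes in only 9 libraries, where high values can arise by chance, and were not tested.

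Besides the 3 enzymes, the table held 20 genes with the same protein names, of which 15 passed the filter. In mock leaves each C4 gene outweighed all its same-named paralogs together. Per kilobase the PPDK gene made up 97.2 ± 0.12% of its family of 3 genes, the PEPC gene 97.8 ± 0.25% of 9, and the NADP-ME gene 97.4 ± 0.79% of 11 (SD, n = 3). The part of the PEPC family outside the C4 gene was 2.24 ± 0.25% in mock, 2.87 ± 0.13% with SA and 2.94 ± 0.39% with Zip1. Both treated groups lay above mock without overlap, with a two-sided exact permutation p of 0.1 each, the smallest possible, and an adjusted p of 0.3 over 9 such comparisons.

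Of the 15 paralogs tested, 2 rose with SA and none fell, and the same 2 rose with Zip1, where 5.11% and 0.823% of all tested genes rose and 1.11% and 0.0607% fell. The median log2 fold change of the 15 was -0.005 with SA and 0.12 with Zip1, beside -0.04 and -0.007 over all tested genes. A few paralog rows are short or near the C4 gene, and reads from the abundant C4 transcript may be counted in them or lost between them.

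The PEPC paralog Zm00001eb238670, on chromosome 5 from 147571697 to 147579448, rose with both treatments. Its protein entry is a PEPC of sorghum. It stood at 50.8, 70.0 and 67.1 normalised CPM in mock, at 241, 148 and 216 with SA, and at 217, 279 and 208 with Zip1. Every treated library was above 2 times the highest mock library, and libraries without overlap in this direction were found for 13.5% of tested genes with SA and 10.3% with Zip1. The log2 fold change was 1.69 with SA (SE 0.224, 95% interval 1.20 to 2.18, adjusted p 0.00126) and 1.91 with Zip1 (SE 0.225, 95% interval 1.41 to 2.40, adjusted p 0.0101), in the edgeR test. Without mock replicate 1 the adjusted p for Zip1 was 0.0646. Even so it reached 65.7 ± 10.8 CPM per kilobase with Zip1, where the C4 PEPC gene was at 6383 ± 1541 (SD, n = 3).

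The NADP-ME paralog Zm00001eb349990, on chromosome 8 from 110806909 to 110810557, rose as well from very few reads. Its protein entry is a chloroplastic NADP-ME of rice. It had 7, 3 and 6 raw counts in the mock libraries, 33, 85 and 34 with SA, and 33, 54 and 48 with Zip1. All treated libraries lay above all mock libraries, at 0.640 ± 0.257 CPM per kilobase with SA and 0.0745 ± 0.0279 in mock (SD, n = 3). Such a lack of overlap was found for 13.5% of tested genes with SA and 10.3% with Zip1. The log2 fold change was 3.07 with SA (SE 0.588, adjusted p 0.010) and 2.98 with Zip1 (SE 0.587, adjusted p 0.0463) in the edgeR test. The call with SA held in all 18 alternatives and the call with Zip1 in 5 of them. It was lost whichever of the 9 libraries was left out, with adjusted p up to 0.149 without mock replicate 1.

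The other paralogs stayed uncalled in the comparisons with mock. The longer PPDK relative, Zm00001eb349810 on chromosome 8 with the entry PPDK 2, stood at 343 ± 198 normalised CPM in mock, 342 ± 140 with SA and 205 ± 34.3 with Zip1 (SD, n = 3), with a log2 fold change of -0.74 for Zip1 (adjusted p 0.632). The shorter gene Zm00001eb287740, of 1570 bases and 42416 bases upstream of the C4 PPDK gene with the same protein entry, stood at 251, 316 and 208 in mock and at 160, 177 and 145 with SA. Its SA libraries were all below its mock libraries, which 10.5% of tested genes showed, and its log2 fold change of -0.69 missed the test (SE 0.269, adjusted p 0.187). Among PEPC paralogs, Zm00001eb309660 and Zm00001eb204600 had 108 and 12.8 normalised CPM in mock and log2 fold changes with SA of -0.16 and 0.50 (adjusted p 0.779 and 0.241). The fragments Zm00001eb419330, Zm00001eb346640 and Zm00001eb428710, of 408, 355 and 577 bases, and the gene Zm00001eb370590 had 34.3, 2.16, 0.889 and 2.66 normalised CPM in mock, and none was called.

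Among NADP-ME paralogs, Zm00001eb154490, the most abundant, was at 114 ± 13.8 normalised CPM in mock, 115 ± 6.67 with SA and 124 ± 2.90 with Zip1 (SD, n = 3). Zm00001eb285890 was at 54.8 ± 8.51, 64.2 ± 14.4 and 60.7 ± 7.27 in the same order. Zm00001eb283570 and Zm00001eb283580 overlap each other, at 9.36 and 0.411 in mock, so that reads may be divided between them, and Zm00001eb143650 was at 0.222. None of these 5 was called. The mitochondrial relatives of the C4 enzyme, 2 genes with NAD-dependent malic enzyme entries, Zm00001eb321980 and Zm00001eb220780, were at 101 ± 23.0 and 32.3 ± 3.03 in mock and were not called either, with Zip1 log2 fold changes of 0.30 and 0.25 (adjusted p 0.701 and 0.555).

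**Figure D3:**
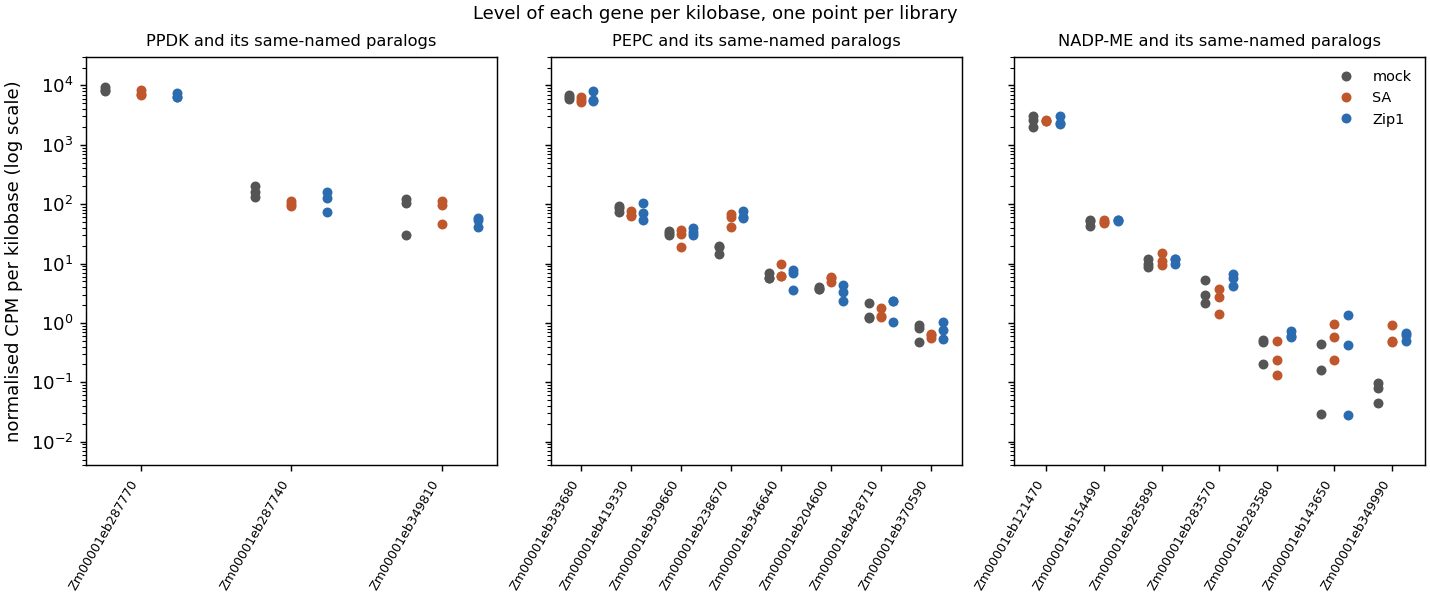
Normalised CPM per kilobase (vertical log axis) of each C4 gene and its tested same-named paralogs, 1 point per library coloured by infiltration, with genes ordered by level. The C4 genes of PPDK, PEPC and NADP-ME lie far above every paralog, and Zm00001eb238670 and Zm00001eb349990 show treated points above the mock points.

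The rest of the C4 pathway was read from a list of 70 further genes matched by words in their protein entries, 49 of them tested. With SA 5 rose and none fell, with Zip1 1 rose and none fell, and between Zip1 and SA 1 was higher and 2 were lower with Zip1, where 1.56% and 2.56% of all tested genes were. Among all tested genes 5.11% rose and 1.11% fell with SA, and 0.823% rose and 0.0607% fell with Zip1. The 5 rises with SA became 3 without mock replicate 1 or SA replicate 3, and the 1 rise with Zip1 became 0 without mock replicate 1, mock replicate 2, Zip1 replicate 1 or Zip1 replicate 2. The 2 genes lower with Zip1 than with SA became 1 without any 1 of the 6 SA and Zip1 libraries or without mock replicate 1. The median log2 fold change of the 49 was -0.08 with SA and -0.05 with Zip1. The blocked fit called 7 rises with SA and 2 with Zip1, as did DESeq2, which also called 1 gene lower with Zip1. Some words also match genes outside the C4 cycle, such as the carbonic anhydrases of mitochondria.

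The abundant partners of the 3 enzymes in the cycle were not called in any comparison. NADP malate dehydrogenase (Zm00001eb038930), which reduces oxaloacetate to malate in mesophyll chloroplasts, was at 2246 ± 386 normalised CPM in mock, 2343 ± 374 with SA and 2076 ± 218 with Zip1 (SD, n = 3). The most abundant carbonic anhydrase gene (Zm00001eb158810), which supplies bicarbonate to PEPC, was at 2727 ± 776, 3554 ± 799 and 3167 ± 812. The PPDK regulatory protein (Zm00001eb106240), which switches PPDK off in the dark and on in the light, was at 1040 ± 213, 887 ± 98.0 and 834 ± 182, with log2 fold changes of -0.23 and -0.32 against mock (adjusted p 0.648 and 0.664). PEP carboxykinase (Zm00001eb011080), a decarboxylase that works beside NADP-ME in the bundle sheath, had the lowest value of the 12 functions with SA, at -0.61 on the log2 scale (SE 0.416, adjusted p 0.485).

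Genes that support the cycle less directly were not called either. The adenylate kinase (Zm00001eb260410) and the pyrophosphatase (Zm00001eb256150), which remove the by-products of the PPDK reaction, had SA log2 fold changes of 0.24 and -0.40 (adjusted p 0.671 and 0.484). The most abundant PEP/phosphate translocator (Zm00001eb042970), which exports phosphoenolpyruvate from the chloroplast, had -0.19 with SA and -0.18 with Zip1 (adjusted p 0.678 and 0.822). A dicarboxylate transporter (Zm00001eb410930), an aspartate aminotransferase (Zm00001eb257910) and a gene with a sodium/proton antiporter entry (Zm00001eb307330) had -0.42, 0.28 and -0.06 with SA, all with adjusted p of 0.470 or more. PEPC kinase (Zm00001eb258360), which phosphorylates PEPC, had few reads, at 0.748 ± 0.665 normalised CPM in mock, so its log2 fold change with SA had a 95% interval from -2.26 to 2.10. Of the most abundant gene for each of 12 functions, 7 had a value below 0 and 5 above with SA, and the same counts held with Zip1. PEPC kinase and the antiporter gene, at 0.533 and 4.20 CPM per kilobase in mock, count as much here as abundant genes. A search for a sodium/pyruvate cotransporter matched no protein entry, so that function is missing from the 12.

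**Figure D4:**
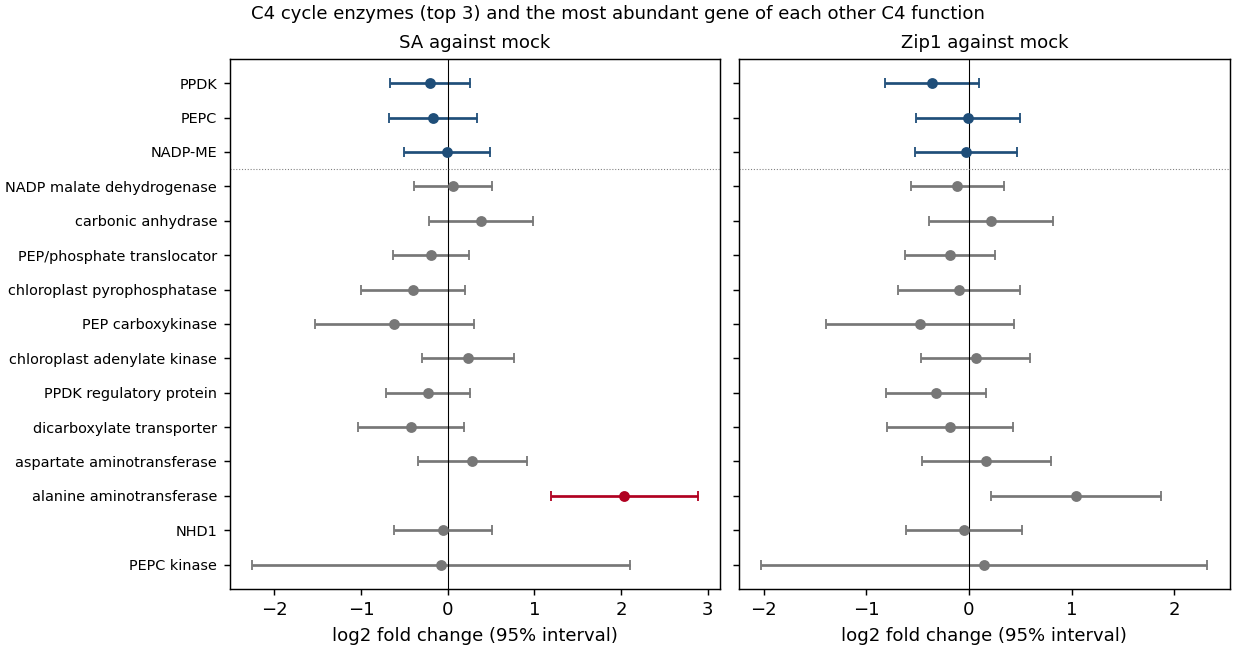
Log2 fold change (horizontal axis) with its 95% interval for the 3 enzymes and the most abundant gene of each of 12 other C4 functions, SA and Zip1 each against mock (n = 3 per group, edgeR). Red marks the only called gene, an alanine aminotransferase at 2.04 with SA, and the intervals of PPDK, PEPC and NADP-ME all span 0.

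The pathway genes that rose with SA were less abundant than the 3 enzymes. The gene Zm00001eb028030 has the entry of an alanine aminotransferase, an enzyme that interconverts alanine and pyruvate, and whether it serves the C4 cycle was not tested. It was at 126, 125 and 117 normalised CPM in mock, 592, 274 and 647 with SA, and 342, 127 and 291 with Zip1. All SA libraries exceeded all mock libraries, which 13.5% of tested genes showed. Its log2 fold change in the edgeR test was 2.04 with SA (SE 0.385, adjusted p 0.00989) and 1.04 with Zip1 (adjusted p 0.276). The related Zm00001eb223680 went from 2.20 ± 0.384 normalised CPM in mock to 16.3 ± 5.64 with SA, which is 2.89 on the log2 scale (adjusted p 0.000845). With Zip1 it was at 7.23 ± 2.92, a log2 fold change of 1.71 at an adjusted p of 0.05002, just over the threshold, and the blocked fit gave 0.00804.

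The PEP/phosphate translocator gene Zm00001eb122890 rose with SA and was lower with Zip1 than with SA. It was at 40.9, 29.9 and 33.8 normalised CPM in mock, 141, 149 and 152 with SA, and 25.0, 20.9 and 24.3 with Zip1. The log2 fold change was 2.08 for SA against mock (SE 0.160, adjusted p 5.51e-05) and -2.65 for Zip1 against SA (SE 0.164, adjusted p 2.92e-05). All Zip1 libraries also lay below all mock libraries, which 7.35% of tested genes showed. The log2 fold change of -0.57 was not called by edgeR (SE 0.156, adjusted p 0.131) but was called by DESeq2 (adjusted p 0.0200). Another translocator gene, Zm00001eb309230, was lower with Zip1 than with SA by a log2 fold change of -0.995 (adjusted p 0.0363), a call lost in 7 of 9 fits that left out a library, with adjusted p up to 0.122 without Zip1 replicate 1. In the blocked fit its SA log2 fold change of 0.83 was called (adjusted p 0.0347).

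The remaining calls were carbonic anhydrases, and the calls against mock were each lost without 1 or another library. Zm00001eb101050, with a chloroplastic beta type entry and 1 overlapping gene, rose with SA by 1.68 on the log2 scale (SE 0.364, adjusted p 0.0200), from 120 ± 31.8 to 385 ± 193 normalised CPM (SD, n = 3). That call was lost in 3 of 9 fits that left out a library, with adjusted p up to 0.0871 without mock replicate 1. Zm00001eb176620, with an alpha type entry, rose with SA by 1.56 (adjusted p 0.0276), a call kept in only 4 of 9 such fits, with adjusted p up to 0.101 without SA replicate 1; it was also lost without SA replicate 3 or any 1 of the mock libraries. Zm00001eb037940, of the same type, rose with Zip1 by 3.21 (adjusted p 0.0223) from 0.621 ± 0.191 to 5.78 ± 1.43 normalised CPM, a call kept in 5 of 9 such fits, with adjusted p up to 0.125 without mock replicate 1; it was also lost without mock replicate 2, Zip1 replicate 1 or Zip1 replicate 2. It was also higher with Zip1 than with SA, by 4.35 (adjusted p 0.00194), and that call held without any 1 of the 9 libraries.

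Other photosynthesis genes of the leaf were uncalled too. Of 37 genes for Rubisco small subunits, Rubisco activases and chlorophyll a-b binding proteins, 30 were tested. None was called in any comparison in the main edgeR fit. Among all tested genes 6.22% were called for SA against mock, 0.884% for Zip1 against mock and 4.11% for Zip1 against SA. Of the 30, 28 had a log2 fold change below 0 with SA and 28 with Zip1. The median of the 30 was -0.37 with SA and -0.38 with Zip1. The values were -0.20 and -0.36 for PPDK, -0.17 and -0.01 for PEPC, and -0.01 and -0.03 for NADP-ME. The median over all tested genes was -0.04 with SA and -0.007 with Zip1. The 30 genes were measured in the same libraries, so their signs are not independent of each other. In the blocked fit 1 of the 30 fell with SA, and 1 did so in the edgeR fit without mock replicate 3.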

How the data were processed

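The measurements were RNA sequencing of poly-A RNA from maize leaves, 3 libraries in each of the mock, SA and Zip1 groups, grouped by their titles. The authors deposited raw counts per gene, with gene lengths, positions and protein entries in the same table, and the submitters' processing notes name HISAT2 2.0.5, featureCounts 1.5.0-p3 and DESeq2 1.20.0. The genome build, the annotation and the strand setting of the counting are not given in the sources used here. The protein entry of a row is the closest described protein and can be of another species. All columns were matched to a library by name. The deposited FPKM table, whose values are per length and library size by its name, had lost decimal points in 44.9% of cells. These were restored from the counts and lengths, and the table served only for alternatives.

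Counts were tested with edgeR 4.0.16 in R 4.3.3: filterByExpr left 23077 genes, libraries were scaled by TMM (factors 0.910 to 1.10), and glmQLFit with robust estimation and glmQLFTest were fitted to all 9 libraries with group as the only term. P-values were adjusted by Benjamini-Hochberg over all tested genes, and the threshold for a call was 0.05. Standard errors were derived from each fold change and its F statistic and are approximate. The biological coefficient of variation was 34.4%. Normalised CPM are the counts over the TMM-scaled library size. Ratios between enzymes and family shares were compared by two-sided exact permutation over the 20 splits of 6 libraries, whose smallest p is 0.10, with adjustment over the 9 tests of each kind. The script was tested on simulated counts. Alternatives were other size factors, DESeq2 1.42.0, no filter, the compared libraries alone, a replicate block, FPKM with limma 3.58.1 and a pseudocount of 1 or 0.1, a stricter threshold of 0.01, and each library left out.

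The labels number replicates 1 to 3 in each group. Library names also give same-numbered libraries of all 3 groups a common letter (D, E or F), whose meaning is not stated. Same-numbered libraries deviated together from their group means across genes, with r of 0.256, 0.262 and 0.198 between SA and mock and 0.247, 0.127 and 0.262 between Zip1 and mock. The numbers were therefore taken to pair the libraries in these 2 comparisons. The main edgeR fit and the permutation tests did not use this pairing, which entered the blocked fit and the sign-flip test of ratios. Within-group r lay between 0.939 and 0.958, and no 2 libraries of a group agreed within counting noise.

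Named were the 3 enzymes, all tested genes of the same protein name, the called genes of the C4 pathway, the most abundant tested gene per pathway function, and the 3 genes most correlated with each enzyme. The enzymes and the lists were chosen with earlier results of these data known, and the family shares, the same-numbered differences and the marker sums without the enzymes were added after values were seen. No gene of the RefSeq table at hand shared an identifier with the count table, and no sequence is shown.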

Additional observations from a re-analysis of the deposited data

How the results depend on the processing

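None of the 3 enzymes was called under any of the alternatives, and PPDK kept its negative sign in all. Near-zero values changed sign: for NADP-ME with SA to 0.020 by total counts, 0.0088 with a replicate block, 0.013 with the 6 compared libraries alone and 0.022 with FPKM at either pseudocount, with Zip1 to 0.061 and for Zip1 against SA to 0.041 by total counts and 0.0016 with upper-quartile factors; PEPC with Zip1 went to 0.065 by total counts. The cause was not tested. The genes called numbered 2449, 930 and 2037 for SA, Zip1 and Zip1 against SA in DESeq2, 2220, 574 and 1553 with the block, and 662, 4 and 296 at an adjusted p of 0.01. Leaving out each library in turn gave 839 to 1414, 0 to 243 and 456 to 960. The SA count moved by over 1.5 times without mock replicates 1 (887) and 2 (886) and SA replicate 3 (839), and the Zip1 count without mock replicates 1 (0) and 2 (41) and Zip1 replicates 1 (117), 2 (56) and 3 (102). The Zip1 against SA count did so without SA replicates 1 (590) and 3 (509) and Zip1 replicates 1 (498), 2 (609) and 3 (456). The 0, in edgeR for Zip1 without mock replicate 1, came with 2184 genes at an unadjusted p under 0.05. Left-out libraries moved NADP-ME between -0.17 and 0.15 (SA), -0.19 and 0.13 (Zip1), and -0.17 and 0.068 (Zip1 against SA), and PEPC between -0.23 and 0.10 (Zip1) and -0.051 and 0.28 (Zip1 against SA). The PPDK to PEPC ratio for SA moved between -0.13 and 0.021, and the NADP-ME to PEPC ratio for Zip1 between -0.092 and 0.10. Between same-numbered Zip1 and SA libraries r was 0.0765, 0.229 and 0.0977, and 2 of the 3 Zip1 libraries correlated best with the SA library of their own number. The paired sign-flip test of ratios cannot go below 0.25, and the block changed no call of an enzyme. In the blocked edgeR fit the adjusted p of PEPC was 0.703 with SA and 0.967 with Zip1, and that of NADP-ME 0.987 and 0.979. For Zip1 against SA the blocked fit called 1 paralog higher, where the unblocked fit called 0 and DESeq2 called 1 lower. The blocked fit also called 4 pathway genes lower in place of 2. With 3 libraries a group and the spread between them, log2 changes within the intervals given cannot be told from none.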
